A study of Mus musculus with 2 samples.

Results

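The cytosolic ribosomal protein genes were taken from the mouse features of a single-cell gene expression library by name: Rpl or Rps followed by a digit, Rplp or Rpsa, with Rps6k kinases and names marked -ps as pseudogenes left out. Of 31053 mouse genes, 86 were members, 52 with large subunit names (Rpl) and 34 with small subunit names (Rps), spread over 19 chromosomes. Of the 86, 77 carried the names of standard ribosomal proteins. The other 9 were Rpl22l1, Rps27l, Rps27rt, Rpl10l, Rpl36al, Rpl39l, Rpl3l, Rpl7l1 and Rps19bp1, of which Rps19bp1 encodes a protein that binds Rps19 and is not part of the ribosome. These 9 held 0.495% of the UMIs (unique molecular identifiers, each marking a captured RNA molecule) on members.

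Each cytosolic ribosome is built from ribosomal RNA and a set of proteins in a large and a small subunit, and most of these proteins are encoded by a single expressed gene and made in matched amounts. Their mRNAs begin with a run of pyrimidines at the cap, the TOP motif, through which mTOR and Larp1 adjust their translation as a group without a change in mRNA level. In resting T cells these mRNAs are stored in quantity, and activation recruits them to polysomes as the cell grows and divides. A few members have paralogs that are known from the testis, from muscle or from p53 responses.

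T cells had been sorted for TCR-β out of tumors of B16, a mouse melanoma line, and of B16–IL-33, the same line engineered to overexpress secreted interleukin-33. The tumors had been implanted intradermally in C57BL/6 mice, and the cells carried hashtag antibodies for their tumor and were pooled before loading. No drug or antibody treatment was given, and all cells shared the pool and the 5′ chemistry. The age of the mice is not given in the sources used here. The pool was 1 library. Only the few cells with a hashtag UMI could be divided by tag, and the differences in share were tested over these tags alone. Ranges in parentheses are 95% intervals that cover counting error only, and cells of 1 pool are not independent samples.

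Of 14035 barcodes, 9078 had 200 to 2500 detected genes and under 5% mitochondrial UMIs, and these cells held 26606999 UMIs with a median of 2467 per cell (lowest 254, highest 14063). Gene expression and hashtag libraries shared 11756 barcodes, and 6665 were shared with the T cell receptor (TCR) table. Ribosomal protein genes took 29.7% of all UMIs in these cells. By UMI count 65 of the 100 most abundant genes and 12 of the top 20 were members, led by Rps24 at rank 5 with 240132 UMIs and Rpl41 at rank 6 with 213566 UMIs. Only Rpl10l, a testis paralog of Rpl10, had no UMI.

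Cells were classed by their own UMIs, so each class is a range of cells and not a sorted type. CD8+ T cells (1255) had more Cd8a and Cd8b1 than Cd4 and Foxp3 UMIs, Treg cells (2600) had Foxp3 and no CD8 gene, Tconv cells (1765) had Cd4 without Foxp3 or a CD8 gene, and myeloid cells (111) had Csf1r without Cd3e. CD8+ T cells with Ccr7, the lymph node homing receptor of naive and central memory cells, and no Gzmb numbered 128, and those with Gzmb, the cytotoxic protease granzyme B, and no Ccr7 numbered 607. Many cells lay at the limit: 67 of the 128 Ccr7+ cells and 128 of the 607 Gzmb+ cells rested on 1 UMI. A further 61 CD8+ T cells with both genes and 459 with neither were left out of this split and kept among all T cells. No class was given to 3347 cells, including 18 that met both a T cell class and the myeloid class, and these entered no comparison.

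The other markers went with these labels in most but not all respects. The gene that defined a class was left out of its list here. Without Ccr7, 6 naive markers summed to 1990.2 CPM (UMIs scaled to a fixed total of the class) in Ccr7+ and 727 CPM in Gzmb+ CD8+ T cells, with Tcf7 at 299 and 63.5 CPM. Without Gzmb, 6 effector markers summed to 3912 and 16109.8 CPM, so that the Ccr7+ class still held effector transcripts, mostly Ccl5 at 2712 CPM. Cycling markers summed to 104 and 449 CPM. Without Foxp3, the Treg markers Il2ra, Ctla4 and Ikzf2 were at 454, 1192 and 861 CPM in Treg cells. In Tconv cells these markers were at 113, 423 and 281 CPM. Without Csf1r, 10 myeloid markers summed to 19531 CPM in myeloid cells and 566 CPM in T cells, whereas without Cd3e, 7 T cell markers summed to 177 CPM in myeloid cells and 4368 CPM in T cells. B cell markers summed to 247 CPM in Ccr7+ and 89.8 CPM in Gzmb+ CD8+ T cells, and to 437 CPM in Treg and 172 CPM in Tconv cells. Most of each sum was Ighm, at 198, 79.7, 416 and 168 CPM in the same order. Cd79a, Cd79b and Ms4a1 were at 20.9, 26.1 and 1.74 CPM in Ccr7+ CD8+ T cells. In Treg cells these markers were at 3.52, 17.3 and 0.243 CPM, so the high Treg sum rested on Ighm. Whether the Ighm UMIs came from B cells was not tested. Melanoma markers stayed between 2.37 and 24.5 CPM and NK markers between 0 and 7.61 CPM in every class. The part of these other cells' RNA in the results was not tested.

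Ccr7+ CD8+ T cells devoted more of their captured mRNA to ribosomal proteins than Gzmb+ CD8+ T cells. Members took 41.7% of UMIs (41.6 to 41.9) in Ccr7+ and 31.5% (31.5 to 31.6) in Gzmb+ cells, a difference of 10.2 percentage points (10.1 to 10.4). Over single cells the share had a median of 42.5% with quartiles of 37.9 and 46.0% in Ccr7+ cells, and a median of 29.5% with quartiles of 25.3 and 34.3% in Gzmb+ cells. The lower quartile of the Ccr7+ cells thus lay above the upper quartile of the Gzmb+ cells. The median Ccr7+ cell had 1698 member UMIs and 2542.5 other UMIs, and the median Gzmb+ cell had 1090 and 2611. CD8+ T cells with both genes were in between at 38.0%, and those with neither were at 35.4%. When cells with both genes were counted in both classes, the difference was 8.21 points.

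The CD4 lineages differed from each other in the same measure. Treg cells had 25.3% of UMIs on members (25.3 to 25.3) and Tconv cells had 32.1% (32.1 to 32.2), a difference of Treg minus Tconv cells of -6.85 points (-6.90 to -6.80). The median over cells was 23.9% in Treg cells and 30.8% in Tconv cells, and the inner quartiles of these classes overlapped, from 18.8 to 28.3% and from 25.1 to 37.2%. Over cells of all depths myeloid cells had the lowest share, 19.0% (18.9 to 19.1), against 29.6% (29.6 to 29.7) for all T cells. They held a median of 880 member UMIs per cell, more than the 784 of T cells, beside 4088 other UMIs against 1954. The lower share in myeloid cells thus went with more UMIs of other genes per cell. Their median of member UMIs was above those of Treg (652) and Tconv cells (808) and below that of CD8+ T cells (1117). Myeloid cells were also deeper, with a median of 5125 UMIs against 2786 in T cells, so these counts were not compared at equal depth.

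**Figure D1:**
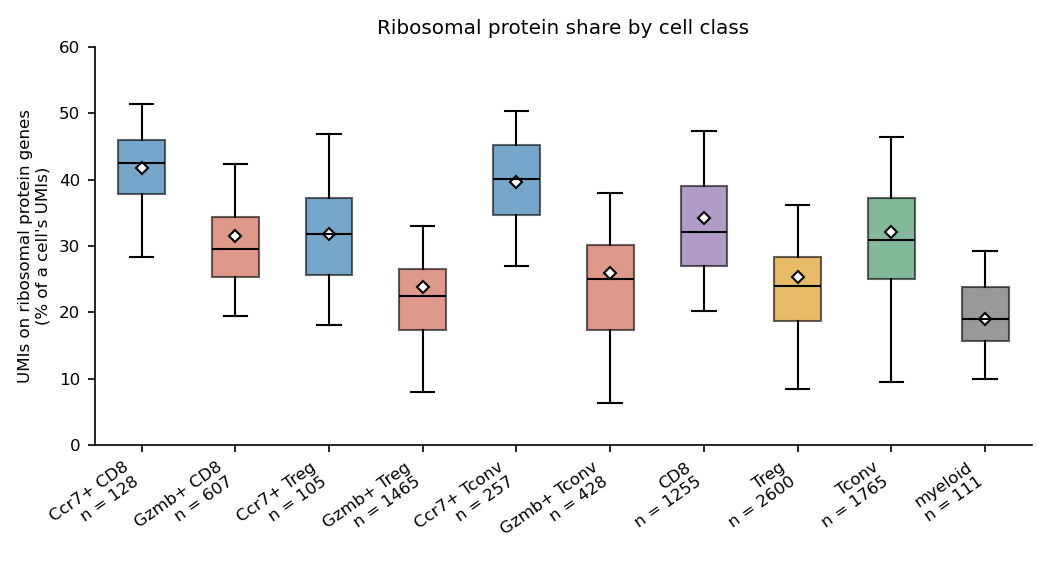
Share of each cell's UMIs on ribosomal protein genes (vertical axis, percent) by class, with the number of cells under each name. Boxes span the quartiles with the median as a line, whiskers reach the 5th and 95th percentiles, and diamonds mark the share of the summed UMIs; Ccr7+ CD8 cells have the highest median, 42.5%, and myeloid cells the lowest, 18.9%.

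The same split by Ccr7 and Gzmb was made inside the CD4 lineages, in cells that share no barcode with the CD8+ classes but come from the same library. Among Treg cells the share was 31.9% in 105 Ccr7+ and 23.9% in 1465 Gzmb+ cells, a difference of 7.999 points (7.85 to 8.15). Among Tconv cells it was 39.7% in 257 Ccr7+ and 26.0% in 428 Gzmb+ cells, a difference of 13.7 points (13.6 to 13.9). The gap between lineages narrowed from Ccr7+ to Gzmb+ cells: Ccr7+ Tconv exceeded Ccr7+ Treg cells by 7.85 points (7.67 to 8.03), and Gzmb+ Tconv exceeded Gzmb+ Treg cells by 2.12 points (2.04 to 2.21). Gzmb+ Tconv cells also held the Treg markers Il2ra, Ctla4 and Ikzf2 at 276, 864 and 596 CPM. In Ccr7+ Tconv cells these were at 36.6, 134 and 76.9 CPM, and in Gzmb+ Treg cells at 548, 1386 and 918 CPM. The part of Treg cells with no captured Foxp3 UMI in these differences was not tested.

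Ribosomal protein share fell in steps with the number of Gzmb UMIs when depth was held between 1500 and 3000 UMIs and cells with Ccr7 were left out. Only the last step in Treg cells was nearly level. In CD8+ T cells the share was 33.5% with no Gzmb UMI, 29.7% with 1, 28.3% with 2 to 3, 26.1% with 4 to 9 and 22.7% with 10 or more. In Tconv cells the same steps gave 32.3, 28.5, 25.01, 23.0 and 19.6%. In Treg cells the steps gave 25.3, 23.2, 21.6, 19.6 and 19.4%. The median over Treg cells was 19.2% with 4 to 9 and 19.6% with 10 or more, so by that measure the last step was no fall. The last step held 19, 18 and 109 cells in the same order of lineages. Without the limit on depth the CD8+ values were 35.4, 32.6, 31.1, 30.6 and 32.0%, so the last step no longer continued the fall, and its cells had a median of 5768 UMIs against 2843 for cells without Gzmb. Treg values were then 26.3, 23.8, 24.3, 24.2 and 23.2%, without a fall at each step. Tconv values were 32.4, 28.9, 25.1, 24.4 and 21.1%. By Ccr7 the step lay between none and 1 UMI: among cells without Gzmb, CD8+ T cells were at 35.4% with no Ccr7 UMI, 41.3% with 1 and 42.1% with 2 or more.

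Depth was therefore followed in bins. In cells with 2000 to under 3000 UMIs, members took 42.9% of UMIs in 23 Ccr7+ and 27.6% in 149 Gzmb+ CD8+ T cells, and in cells with 5000 or more they took 41.6% in 51 and 33.9% in 210 cells. Ccr7+ cells were above Gzmb+ cells in each of the 4 bins that held cells of both classes. Treg cells were below Tconv cells in all 5 bins, at 13.8 and 14.7% in the lowest and, for example, at 24.0 and 33.4% between 2000 and 3000 UMIs. The place of myeloid cells changed with depth: between 1000 and 2000 UMIs 11 myeloid cells were at 24.0%, above the 20.3% of 591 Treg cells, and between 2000 and 3000 UMIs 11 were at 20.8%, below them. T cells exceeded myeloid cells by 5.65 points between 1500 and 3000 UMIs, where only 18 myeloid cells remained, against 10.7 points (10.6 to 10.8) in all cells.

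**Figure D2:**
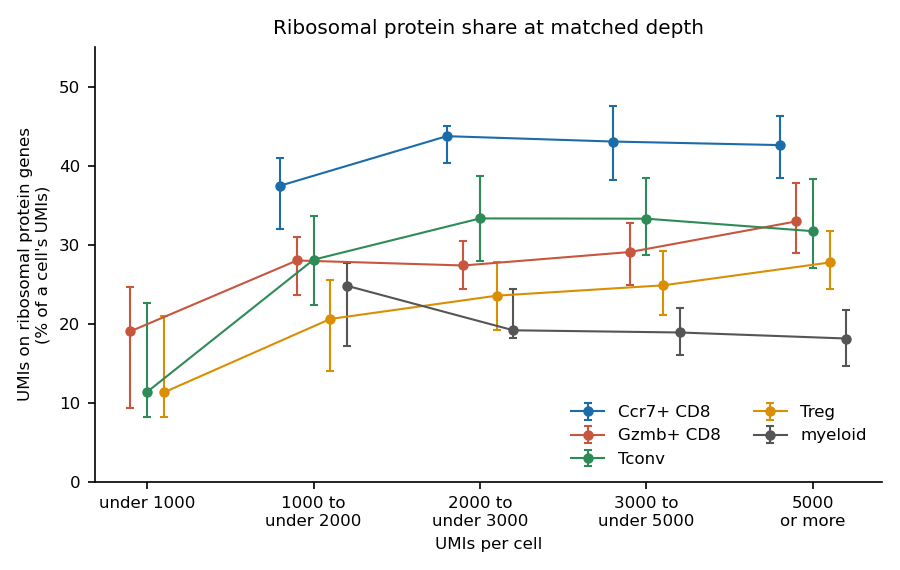
Median share of a cell's UMIs on ribosomal protein genes (vertical axis, percent, bars span the quartiles) in 5 bins of UMIs per cell (horizontal axis) for 5 classes. Ccr7+ CD8 cells are above the other classes in every bin they occupy, with medians from 37.5 to 43.7%, and Treg and Tconv cells both fall to 11.3 and 11.4% in the shallowest bin.

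A minority of cells, most of them shallow, had a low share of ribosomal protein mRNA. Members took under 10% of UMIs in 190 Treg cells (7.31%), 102 Tconv cells (5.78%) and 20 CD8+ T cells (1.59%). By split, they included 121 Gzmb+ Treg (8.26%), 63 Gzmb+ Tconv (14.7%) and 9 Gzmb+ CD8+ T cells (1.48%). Among Ccr7+ cells they were 3 of 105 Treg cells (2.86%) and none of 257 Tconv or 128 CD8+ T cells. A count of 0 allows up to 3 cells. The Ccr7+ classes held few shallow cells, with 3 Treg, 2 Tconv and 0 CD8+ T cells under 1000 UMIs. The 190 Treg cells under 10% had a median of 1079.5 UMIs against 2914.5 in other Treg cells, and the nuclear RNA Malat1 took 1.56% against 0.487% of their UMIs. Their mitochondrial share was 2.79% against 1.88%. Outside the limits, 1967 barcodes with 5% or more mitochondrial UMIs had a median of 936 UMIs and 15.7% on members. The part of RNA quality in the differences between classes was not tested, but leaving out all cells under 1000 UMIs, a setting added once the data had been seen, gave differences of 10.2, -6.995 and 10.9 points in the 3 comparisons.

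The proliferation marker Mki67 went with no common direction of the share. Members took 31.3% of UMIs in 122 CD8+ T cells with an Mki67 UMI and 34.7% in 1133 without, at median depths of 5769.5 and 3294 UMIs. In Treg cells the values were 25.4% in 264 and 25.3% in 2336 cells, and in Tconv cells they were 27.7% in 126 and 32.6% in 1639 cells. Expanded clones, those with 2 or more cells in the library, were lower than single-cell clones in each lineage, at 32.1 and 34.8% in CD8+, 23.5 and 25.8% in Treg and 28.0 and 32.96% in Tconv cells. Within Gzmb+ CD8+ T cells they were at 31.6 and 31.4%, so the order did not hold there.

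The study compared B16 with B16–IL-33 tumors, but few cells could be given a tumor, because a hashtag UMI was rare: a cell counted only if it had a tag UMI and none from the other tumor's tags. CD8+ T cells were at 32.9% in B16 (103 cells) and 34.4% in B16–IL-33 tumors (19 cells), Treg cells at 25.3% (244) and 24.2% (55), and Tconv cells at 32.9% (164) and 32.0% (17). The differences of B16–IL-33 minus B16 were 1.49 points (1.14 to 1.84), -1.11 points (-1.32 to -0.890) and -0.913 points (-1.37 to -0.456). Each tumor had a pair of tags, and a cell was given a tag if it held UMIs of that tag alone. Under the tags of B16 tumors the values were 33.1 and 32.7% in CD8+, 25.1 and 25.6% in Treg and 34.1 and 32.2% in Tconv cells. Under those of B16–IL-33 tumors they were 35.9 and 32.9%, 22.3 and 24.9%, and 34.8 and 29.0% in the same order. The B16–IL-33 tags lay further apart than the tumors did in each lineage, and the B16 tags did so in Tconv cells but not in CD8+ or Treg cells.

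The differences between classes were also taken within the 4 tags. Whether each tag stood for 1 animal is not given in the sources used here. Treg cells were below Tconv cells under all 4, by -9.01 and -6.64 points in the B16 tags and by -12.5 and -4.07 points in the B16–IL-33 tags, the latter on 8 and 9 Tconv cells. The mean was -8.05 points ± 3.57 (SD, n = 4), and the two-sided exact permutation test over tags gave p = 0.125. Ccr7+ were above Gzmb+ CD8+ T cells under the 3 tags that held both, by 10.6 to 14.3 points (exact permutation p = 0.25), with a single Ccr7+ cell under 1 of them. T cells were above myeloid cells under 3 tags, by 2.39 to 16.6 points (exact permutation p = 0.25), the lowest on a single myeloid cell. These are the smallest p-values that 4 and 3 tags allow, so no difference could pass 0.05, and adjusted over the 3 comparisons each exact permutation p was 0.25.

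The higher share in Ccr7+ CD8+ T cells was spread over the module. Of 86 members, 81 had at least 100 UMIs over both classes. Of these, 78 had a higher CPM in Ccr7+ cells, beside 29.6% of all genes. An interval wholly above 1 was found for 72 members, and such intervals were not counted over all genes. The median ratio of members was 1.31 (lowest 0.737, highest 1.70), against a median of 0.848 over the 3508 genes with at least 100 UMIs. CPM values share 1 total, so a large module that takes a greater part leaves less for other genes. A ratio of 1.5 or more was reached by 12 members beside 4.45% of all genes, and a ratio as low in the other direction by none beside 22.1%. The 12 became 41 among cells of 1500 to 3000 UMIs, and 2 when cells with both class genes were counted in both classes. The share of all genes past the fold was not computed under these settings.

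**Figure D3:**
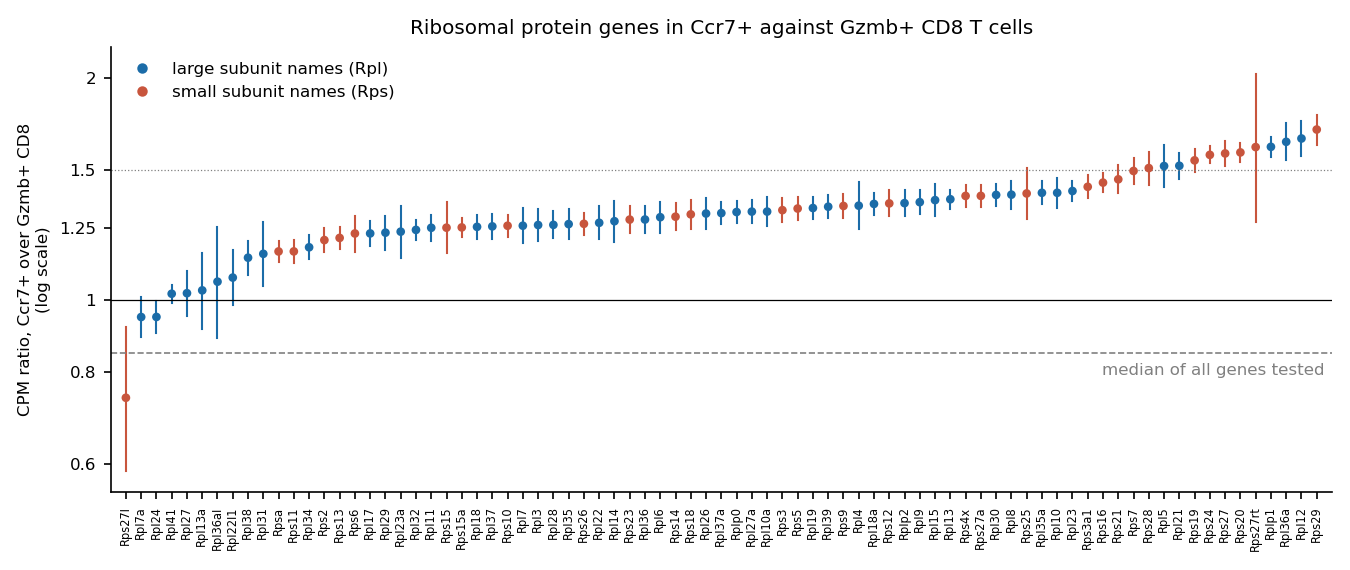
Ratio of CPM in Ccr7+ over Gzmb+ CD8 T cells (vertical log axis) for 79 of the 81 ribosomal protein genes with at least 100 UMIs, sorted, with 95% counting intervals as bars; the dotted line is 1.5 and the dashed line is the median of all genes, 0.848. All but 3 points lie above 1, and Rps27l stands apart below.

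Rps29, a small zinc-binding protein of the small subunit (ENSMUSG00000034892, chromosome 12, 69157722 to 69159186, GRCm38), had the highest ratio, with 4257 CPM in Ccr7+ and 2502 CPM in Gzmb+ CD8+ T cells, or 1.70-fold (1.62 to 1.78). Rpl12, which lies at the base of the stalk where elongation factors bind (ENSMUSG00000038900, chromosome 2, 32961559 to 32965345), had 2954 and 1786 CPM, a ratio of 1.65 (1.56 to 1.75). Rpl36a, a large subunit protein on the X chromosome, followed at 1.64 (1.54 to 1.73), Rplp1 of the stalk at 1.61 (1.56 to 1.66) and Rps27rt at 1.61 (1.27 to 2.02). These members lay well above the module's median, and Rps20, Rps27, Rps24, Rps19, Rpl21, Rpl5 and Rps28 between 1.51 and 1.58 completed the 12. Just under the fold was Rps7 at 1.495.

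The lower end held members whose CPM hardly differed between the classes. Rpl7a, a large subunit protein (ENSMUSG00000062647, chromosome 2, 26910764 to 26913318), had 2095 and 2209 CPM, a ratio of 0.948 (0.891 to 1.01). Rpl24 was at 0.949 (0.901 to 0.998), Rpl41, the smallest ribosomal protein, at 1.02 (0.991 to 1.05) and Rpl27 at 1.02 (0.952 to 1.10). Rpl24 moved above 1 without the upper limit on detected genes and Rpl27 below 1 between 1500 and 3000 UMIs, so neither direction was stable. The clearest exception was Rps27l, the p53-inducible paralog of Rps27, with 164 CPM in Ccr7+ and 222 CPM in Gzmb+ cells, a ratio of 0.737 (0.587 to 0.918).

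Genes at the ends of this order were read at their start sites, because TOP mRNAs are defined there. RefSeq windows (GRCm38.p6) were found for 66 of 86 members. Each line gives 15 bases before the annotated start and the first 15 bases of the transcript, 5′ to 3′ on the gene's strand, and capitals mark in each the run nearest the start of a C followed by at least 4 pyrimidines, other such runs staying in lower case. Rpl12 and Rpl36a were among the highest, Rpl7a and Rpl41 among the lowest, and Rps27 and Rps27rt are a near-identical pair. The windows lie at chr2:32961697-32961726 (+), chrX:134585639-134585668 (+), chr2:26910792-26910821 (+), chr10:128549154-128549183 (-), chr3:90213634-90213663 (-) and chr9:114982725-114982754 (-).
Rpl12: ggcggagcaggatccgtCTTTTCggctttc
Rpl36a: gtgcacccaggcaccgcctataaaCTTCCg
Rpl7a: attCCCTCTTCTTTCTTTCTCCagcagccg
Rpl41: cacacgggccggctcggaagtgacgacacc
Rps27: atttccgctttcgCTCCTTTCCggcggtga
Rps27rt: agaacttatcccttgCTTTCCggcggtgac

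Of the members at the upper end, the 3 read have such a run, of 6 bases in Rpl12, 5 in Rpl36a and 6 in Rps27rt. Of the 4 read at the lower end, Rpl24, Rpl41 and Rpl27 have none in these 30 bases and Rpl7a has one of 19. How often any run falls in these 30 bases was not counted over members or over all windows, so the ends cannot be compared by it. The run of Rps27rt begins at the annotated start base and that of Rpl7a covers it. Those of Rpl12 and Rpl36a begin downstream of the start base, so they are not runs at the annotated cap site. Such a run on the sense strand covered or began at the annotated start base in 21 of 78 member windows (26.9%) and in 8.02% of all 32851 windows of the same length. One beginning within 10 bases of the start was found in 50% and 29.0%. The letters CTTTCC within 50 bases either side of the start, which overlap such runs, were in 30.8% and 4.69%. The search used the annotated start, which may differ from the start used in these cells, and a match is only a description of the letters. For some genes the RefSeq start also lies apart from the outer end of the gene in GENCODE. The Rpl12 window begins at 32961697 and its gene at 32961559. On the minus strand the Rpl41 window spans 128549154 to 128549183, and its gene reaches to 128549305.

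The stalk, the laminin receptor gene and other members with roles outside the ribosome were compared as well. Rplp0, the stalk's anchor, was at 7503 and 5704 CPM in Ccr7+ and Gzmb+ CD8+ T cells (1.32-fold, 1.27 to 1.36) and Rplp2 at 5360 and 3963 CPM (1.35, 1.30 to 1.41), so Rplp1 exceeded both of its partners. Rpsa, also known as the laminin receptor precursor, was at 8136 and 6994 CPM (1.16, 1.13 to 1.20). Rps6, the target of S6 kinase, was at 2710 and 2203 CPM (1.23, 1.16 to 1.30). Rpl5 and Rpl11, which bind Mdm2 together with 5S RNA, had unequal ratios of 1.52 (1.42 to 1.62) and 1.252 (1.20 to 1.30).

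Of 83 measured members, 81 had a lower CPM in Treg than in Tconv cells, whereas 62.0% of all genes had a higher one. An interval wholly below 1 was found for 79 members, and such intervals were not counted over all genes. The median ratio of members was 0.782 against 1.07 over 7865 genes. Past 1.5-fold lower were 5 members beside 4.56% of all genes, and past 1.5-fold higher was 1 member, Rps27l, beside 11.1%. The 5 became 27 among cells of 1500 to 3000 UMIs and 2 without the upper limit on detected genes, where Rps27l was no longer past the fold. The share of all genes was not computed under these settings. Most members differed by less than 1.5-fold, so the lower share was again broad. Rps29 was lowest with 2063 CPM in Treg and 3240 CPM in Tconv cells (0.637, 0.623 to 0.651). Rpl8 was at 0.642 (0.629 to 0.656), Rps27rt at 0.659 (0.597 to 0.727) and Rps27 at 0.666 (0.655 to 0.677).

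Rps27l went the other way, with 214 CPM in Treg and 137 CPM in Tconv cells, 1.56-fold (1.43 to 1.71). Rpl7a was level at 1.01 (0.986 to 1.04), and fell below 1 among cells of 1500 to 3000 UMIs. Rpl39 at 0.949, Rpl41 at 0.942 and Rpsa at 0.928 were the next highest. Among the members named by role, Rpl5 was at 0.706 and Rpl11 at 0.830, Rplp0, Rplp1 and Rplp2 were at 0.819, 0.807 and 0.770, and Rps6 was at 0.786.

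Against myeloid cells, 77 of 83 members had a higher CPM in T cells, beside 68.8% of all genes. The median ratio of members was 1.55 against 1.39 over 8657 genes. Here 47 members were past 1.5-fold higher beside 45.9% of all genes, so their count was not much above that background, and 3 were past 1.5-fold lower beside 15.6%. Among cells of 1500 to 3000 UMIs the 47 became 27, and the share of all genes was not computed there. The comparison separated single members more than it separated the module. Rpl13a, which in myeloid cells is known as part of an interferon-dependent translation inhibitor, was at 527 CPM in T cells and 172 CPM in myeloid cells (3.07-fold, 2.52 to 3.78). Rpl12 was at 2.57 (2.34 to 2.84), Rpsa at 2.38 (2.27 to 2.51), Rps15a at 2.26 (2.16 to 2.37) and Rps27 at 2.25 (2.12 to 2.39).

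Members lower in T cells than in myeloid cells were few. Rps27l was at 188 CPM in T cells and 352 CPM in myeloid cells (0.533, 0.462 to 0.617), and Rps19bp1 and Rpl7l1 were at 0.598 (0.400 to 0.934) and 0.627 (0.416 to 0.988), on 25 and 24 myeloid UMIs. Rpl10, which is added late to the large subunit, was at 2653 and 3356 CPM (0.790, 0.755 to 0.828). With at least 2 UMIs of the class gene none of the 83 was past 1.5-fold lower. The share of all genes was not computed under that setting.

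Since the size of the module dominates these ratios, each member was also taken as its share among member UMIs alone. In Ccr7+ against Gzmb+ CD8+ T cells, 54 of 81 members had a ratio of shares between 0.9 and its inverse. The extremes were Rps29 at 1.28, Rpl12 at 1.249 and Rpl36a at 1.24 above, and Rps27l at 0.557, Rpl7a at 0.716, Rpl24 at 0.716 and Rpl41 at 0.770 below. In Treg against Tconv cells 63 of 83 stayed within that range, and in T cells against myeloid cells 31 of 83, from 0.341 for Rps27l to 1.96 for Rpl13a. Composition thus varied least between Treg and Tconv cells by this count.

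The split by Ccr7 and Gzmb moved single members alike in the 3 lineages. In Treg cells 15 of 83 members were past 1.5-fold higher in Ccr7+ cells (6.23% of all genes) and none past 1.5-fold lower (19.9%), with a median ratio of 1.34. In Tconv cells 41 of 81 were past 1.5-fold higher (7.03%) and 1, Rps27l, past 1.5-fold lower (27.2%), with a median of 1.51. Of the 81 members measured in all 3 splits, the share among member UMIs was above 1 in each for 26, below 1 in each for 30 and mixed for 25. Across these 81 genes Pearson's r on the log ratio was 0.770 between CD8+ and Treg cells, 0.856 between CD8+ and Tconv cells and 0.857 between Treg and Tconv cells, with Spearman's rho of 0.691, 0.787 and 0.845. The splits share no cell, but they share the library, the class genes and the genes' abundance, and genes are not independent replicates.

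Rps29 was first in each lineage, with 1.28 in CD8+, 1.253 in Treg and 1.34 in Tconv cells, and Rpl36a followed with 1.24, 1.19 and 1.29. Rps20, Rpl12, Rps28, Rps19 and Rpl5 were also above 1 throughout, between 1.08 and 1.27. On the other side Rpl7a was at 0.716, 0.801 and 0.660, Rpl24 at 0.716, 0.753 and 0.766, Rpl27 at 0.771, 0.778 and 0.761, and Rpl41 at 0.770, 0.835 and 0.7996.

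**Figure D4:**
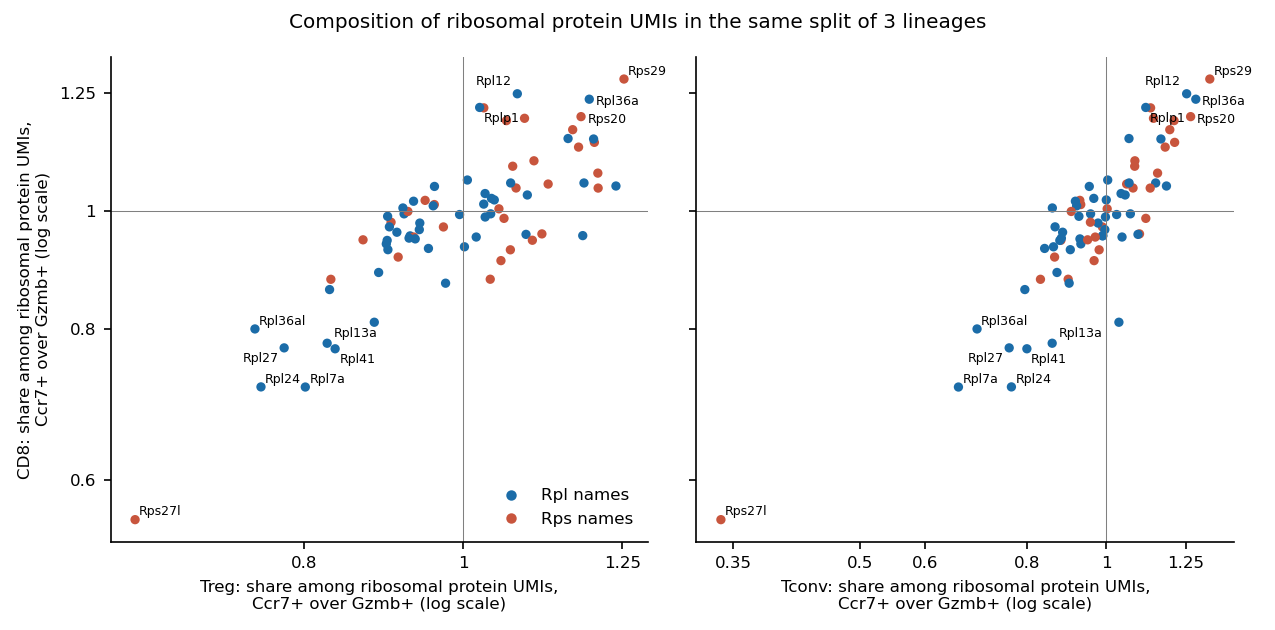
Share of each gene among ribosomal protein UMIs, as the ratio of Ccr7+ over Gzmb+ cells on log axes, in CD8 T cells (vertical) against Treg cells (left, horizontal) and Tconv cells (right, horizontal) for 79 of 81 genes. Rps29 and Rpl36a are at the upper right in both panels, Rps27l is at the lower left, and Rpl7a, Rpl24, Rpl27 and Rpl41 lie low in all lineages.

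Members of the small subunit took a larger part in the Ccr7+ cells of each lineage. The ratio of large to small subunit UMIs was 1.18 in Ccr7+ and 1.24 in Gzmb+ CD8+ T cells, 1.18 and 1.27 in the same split of Treg cells and 1.13 and 1.24 in that of Tconv cells. It was 1.255 in all Treg, 1.20 in all Tconv and 1.29 in myeloid cells. In share of all UMIs, large subunit names went from 22.6% to 17.4% and small subunit names from 19.1% to 14.1% from Ccr7+ to Gzmb+ CD8+ T cells.

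The paralogs were compared with their parent genes within each class, which removes the size of the module. Rps27l (ENSMUSG00000036781, chromosome 9, 66946086 to 66949516) made up 2.64% (2.14 to 3.22) of the UMIs of Rps27l and Rps27 in Ccr7+ and 5.49% (5.06 to 5.93) in Gzmb+ CD8+ T cells. The same split gave 3.71% (2.95 to 4.61) and 6.24% (5.88 to 6.62) in Treg cells and 1.20% (0.935 to 1.52) and 3.94% (3.42 to 4.51) in Tconv cells. In all Treg cells it was 5.55%, in all Tconv cells 2.45% and in myeloid cells 15.2% (13.3 to 17.3). The order from Ccr7+ to Gzmb+ to myeloid cells held in every lineage without overlap of the intervals. Coding sequences of Rps27 and Rps27l are 76.2% identical, and those of Rpl36a and Rpl36al are 87.7% identical. How well the reads of this library separate each pair was not tested.

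Rps27rt (ENSMUSG00000050621, chromosome 9, 114982366 to 114982739) served as a contrast. Its 252 coding bases are all identical to those of Rps27 (ENSMUSG00000090733, chromosome 3, 90212522 to 90213651), and the start windows above share the run CTTTCC and the bases after it. It made up between 2.69% and 3.004% of the pair's UMIs in each of the classes shown, from 2.89% (2.36 to 3.49) in Ccr7+ to 2.83% (2.52 to 3.17) in Gzmb+ CD8+ T cells and 3.004% (2.10 to 4.15) in myeloid cells. How reads were divided between these genes is not given in the sources used here, so the values of Rps27rt are uncertain.

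Rpl36al made up 9.50% (8.17 to 11.0) of its pair with Rpl36a in Ccr7+ and 13.97% (13.0 to 14.9) in Gzmb+ CD8+ T cells, 9.70 and 14.6% in Treg, 9.06 and 15.6% in Tconv and 19.5% (16.6 to 22.6) in myeloid cells. Rpl22l1, the paralog of Rpl22, which αβ T cell development requires, showed no such order, at 26.0 and 29.4% in CD8+, 24.2 and 24.8% in Treg and 28.5 and 25.4% in Tconv cells. Rpl7l1 stayed between 0.992 and 1.39% of its pair in the T cell splits. Paralogs known from the testis and muscle were almost silent: Rpl39l had 48 UMIs in all T cells beside 90514 of Rpl39, Rpl3l had 1 beside 43531 of Rpl3, and Rpl10l had 0 beside 48443 of Rpl10, where 0 allows up to 3. Rps4x, whose paralog Rps4l was not analysed here, was at 7080 and 5119 CPM in Ccr7+ and Gzmb+ CD8+ T cells (1.38, 1.34 to 1.43).

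**Figure D5:**
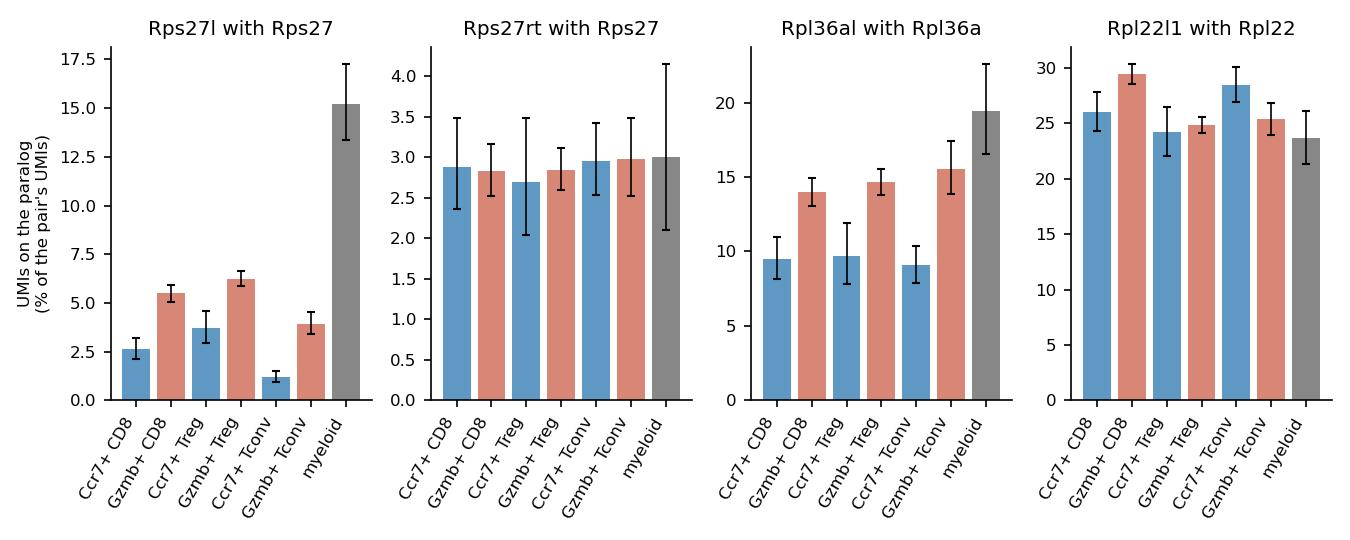
UMIs on 4 paralogs as a percent of the UMIs of the paralog and its parent gene (vertical axes, each from 0, different scales) in 7 classes, with 95% counting intervals. Rps27l and Rpl36al are higher in Gzmb+ than in Ccr7+ cells of each lineage and highest in myeloid cells, whereas Rps27rt stays between 2.69 and 3.004% and Rpl22l1 has no common order.

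Ribosome components outside the name rule and other translation genes did not all follow the members. Fau, which encodes a small subunit protein fused to a ubiquitin-like domain, was at 9584 and 8982 CPM in Ccr7+ and Gzmb+ CD8+ T cells (1.07-fold, 1.04 to 1.10), and turned below 1 between 1500 and 3000 UMIs. Rack1, a scaffold on the small subunit, was at 1.27 (1.19 to 1.35). In Treg against Tconv cells they were at 0.897 and 0.743, and in T cells against myeloid cells at 1.23 and 1.67.

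Of 15 elongation factors and other TOP mRNA partners, both of these included, 10 were higher in Ccr7+ than in Gzmb+ CD8+ T cells with a median ratio of 1.07, led by Eef1b2, a subunit of the elongation factor exchange complex, at 1.57 (1.47 to 1.67), and 2 were higher in Treg than in Tconv cells with a median of 0.889. Eef1a1, which delivers tRNA, was at 1.29 and 0.802, and Eef2, which drives translocation, at 0.921 and 0.889. Of 28 initiation factors, 10 and 10 had a ratio over 1 in these comparisons, with medians of 0.895 and 0.940. Mitochondrial ribosomal proteins, which serve another ribosome, had medians of 0.789 over 52 measured genes and 0.957 over 76. Over all genes, 29.6% and 62.0% had a ratio over 1 in these comparisons, so the 2 equal counts of initiation factors lie beside unlike backgrounds. The medians over all genes were 0.848 and 1.07, and those of the cytosolic members were 1.31 and 0.782. In T cells against myeloid cells the lists had medians of 1.46, 1.02 and 1.04.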

How the data were processed

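T cells of 1 pool gave a gene expression, a hashtag and a TCR library. The authors deposited raw counts of UMIs per gene or tag and barcode, without normalization, and for TCR contigs a count of UMIs per contig. The file header names Cell Ranger 3.1.0 with a combined human and mouse reference, the submitters' processing notes Cell Ranger 6.1.1, and the build is mm10. Cells were filtered by the limits of the study's methods. UMIs were summed by class in Python 3.11.15 with NumPy 2.4.6, and intervals at 95% came from SciPy 1.17.1: exact binomial for shares, exact Poisson for counts, exact conditional binomial for ratios and square-and-add for differences. Ratios used genes with at least 100 UMIs over both classes, and a fold of 1.5 counted as past the threshold. With 1 library no test was run over cells. A two-sided exact sign-flip permutation test of the shares over the 4 hashtags was added after the data were seen. The ratio and its interval were tested on simulated independent Poisson counts for the CD8+ classes. Such counts hold no spread between cells, so that test covers counting error only. Genes named were the 5 highest and 5 lowest by ratio of CPM and by share among member UMIs in each of 3 comparisons, with roles and paralogs listed by hand, and genes of the Ccr7 and Gzmb splits were picked after their values were seen. Members and lists were chosen with earlier results of these data known. Human features and pseudogene names stayed out of the totals of members. Doublets were not called, and 1 alternative left out cells with 2 or more productive beta chains. Coordinates are from GENCODE vM21 (GRCm38). The results of some genes are not reported here. Whole-tumor and other libraries of the study were not analysed here.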

Additional observations from a re-analysis of the deposited data

Results flagged for a closer look

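UMIs on names outside the comparisons were counted in the same library. The 87 human ribosomal protein features of the combined reference held 491 UMIs, or 5.73% of the 8562 UMIs on human genes, although all cells were from mice. The 9 mouse names marked as ribosomal protein pseudogenes held 6229 UMIs in the cells kept, equal to 0.0788% of the UMIs on members. Rpl13a-ps1 took 8.95% (6.28 to 12.3) of its UMIs with Rpl13a in Ccr7+ and 10.3% (8.89 to 11.8) in Gzmb+ CD8+ T cells, and 8.33% (3.88 to 15.2) in myeloid cells. Rpl27-ps3 took 6.94% (5.47 to 8.66) and 7.27% (6.54 to 8.04) of its UMIs with Rpl27 in the CD8+ classes. These intervals overlapped between the classes.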

How the results depend on the processing

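The 3 differences in share kept their direction under all 15 alternatives. Paired within hashtags as a replicate block, their means were 12.1 points for Ccr7+ against Gzmb+ CD8+ T cells, -8.05 for Treg minus Tconv and 9.60 for T minus myeloid cells, over 3, 4 and 3 tags. From Ccr7+ to Gzmb+ CD8+ T cells the difference was 9.19 points without the upper limit on genes, 10.7 with a mitochondrial limit of 10%, 8.21 with cells of 2 classes kept in both, 10.6 with at least 2 UMIs of the class gene, 13.8 in cells of 1500 to 3000 UMIs, 10.7 with mitochondrial UMIs out of the total, 11.7 as a mean over cells, 11.1 without the 50 most abundant other genes and 10.6 without Mki67+ cells. For Treg minus Tconv cells the same 9 settings gave -5.55, -6.49, -6.81, -6.95, -9.03, -7.14, -7.02, -7.97 and -7.30, and it was -6.78 with Cd3e required, -6.94 without cells of 2 beta chains and -6.995 without cells under 1000 UMIs. For T minus myeloid cells the 9 settings gave 9.88, 10.3, 10.4, 10.4, 5.65, 11.0, 8.19, 12.3 and 11.0, and it was 10.5 without cells of 2 beta chains and 10.9 without cells under 1000 UMIs. Members past the fold in either direction, 12, 6 and 50 in the 3 comparisons, became 41, 28 and 30 between 1500 and 3000 UMIs. At a lower fold than 1.5 the first 2 became 61 and 48. The first became 2 with cells of 2 classes kept in both, and the second 2 without the upper limit. The share of all genes past the fold was not computed under these settings, so the counts have no background beside them. The cause of these changes was not tested. The settings on hashtags, the 50 most abundant genes, Mki67 and 1000 UMIs were chosen after the data were seen. Of 1026 values of named genes under alternatives, 1011 kept their direction, and the 15 others were below the fold. Counting error is small here, and the few tagged cells and 1 UMI classes limit the results.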

Other observations

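Among cells of the Treg and Tconv splits, Rack1 was at 1748 CPM in Ccr7+ and 1230 CPM in Gzmb+ Treg cells (1.42-fold, 1.32 to 1.53) and at 2047 and 1393 CPM in Tconv cells (1.47-fold, 1.37 to 1.57). Npm1, a nucleolar chaperone of ribosome assembly, was at 903 and 609 CPM in Treg cells (1.48-fold, 1.33 to 1.65), at 1106 and 680.1 CPM in Tconv cells (1.63-fold, 1.48 to 1.79) and at 1346 and 977 CPM in CD8+ T cells (1.38-fold, 1.27 to 1.49). Eif4a2, a helicase of initiation, was at 197 and 117 CPM in CD8+ T cells (1.69-fold, 1.35 to 2.10), at 241 and 139.6 CPM in Tconv cells (1.73-fold, 1.39 to 2.14) and at 156 and 120.1 CPM in Treg cells (1.30-fold, 0.994 to 1.68), where the interval included 1. These 3 genes were named after their values were seen.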
